A study of Rattus norvegicus with 4 samples.

Results

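The genes described here are the inhibitor-of-differentiation genes Id1, Id2, Id3 and Id4 and the inhibitors of bone morphogenetic protein (BMP) signalling Smad6, Smad7 and Bambi. They were chosen by gene symbol, as direct targets of BMP signalling, and all 7 were found among 34034 genes in the count table. All 7 had at least 40 counts over the 4 libraries, as did 12228 genes in all. Rat mesenchymal stem cells from femurs were grown in osteogenic induction medium and treated for 24 h before RNA extraction on day 1. The libraries came from senescent cells given trichostatin A (TSA, a histone deacetylase inhibitor) together with phenamil, senescent cells given TSA alone, senescent cells given vehicle (senescent control) and young cells given vehicle (young control). No library held phenamil alone or young cells with either compound. Each condition had 1 library, so a difference in culture or preparation between libraries cannot be told apart from the condition. The labels name phenamil, and the series title phenamil methanesulfonate, whereas the design text names benzyl ether as the second compound. The sources used here give neither doses nor the way in which cells became senescent.

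BMP ligands bind paired serine/threonine kinase receptors, which phosphorylate Smad1, Smad5 and Smad9. With Smad4 these enter the nucleus and bind target genes, among which the Id genes are the best known direct targets. Id proteins have a helix-loop-helix but no DNA-binding region, so they pair with E proteins such as Tcf3, Tcf4 and Tcf12 and keep them and their basic helix-loop-helix partners off DNA. Smad6 and Smad7 are inhibitory Smads induced by the same signals, Smad6 acting mainly on BMP and Smad7 on both BMP and TGF-beta receptors. Bambi is a pseudoreceptor that lacks a kinase domain. Phenamil is an amiloride derivative known to promote osteoblast differentiation in culture.

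Total counts were 10720172 with TSA + phenamil, 9873894 with TSA, 11024227 in the senescent control and 10905230 in the young control. All 9 mesenchymal stromal markers listed (Thy1, Cd44, Itgb1, Nt5e, Eng, Pdgfra, Pdgfrb, Col1a1 and Col1a2) had counts in every library, although Eng (CD105) had only 18 to 23. They summed to 49914 CPM with TSA + phenamil, 40472 CPM with TSA, 44930 CPM in the senescent control and 47402 CPM in the young control. Most of this sum came from Col1a1, at 33576, 26684, 29864 and 30460 CPM in that order, and from Col1a2. This sum was lowest in the TSA library, where Id1 was highest, and its part in the results was not tested. Among them Pdgfrb had 493 counts with TSA + phenamil, 255 with TSA, 427 in the senescent control and 516 in the young control. In TSA against senescent control Itgb1, Cd44, Pdgfra, Col1a1 and Col1a2 were also lower in CPM, whereas Nt5e was higher, at 16.4 against 10.8 CPM. Thy1 was at 782 against 754 CPM and Eng at 2.02 against 2 CPM in that pair. The endothelial genes Pecam1, Vwf, Emcn and Cldn5 and the blood cell genes Itgam, Cd79a and Hbb were at 0 in all libraries. Of the other endothelial markers, Kdr had 2 counts and Cdh5 and Tie1 1 each, all in the TSA library, where Id1 was highest, and Tek had 4 with TSA + phenamil. Esam had 6 to 11 counts and Egfl7 197 to 312. Of the 10 endothelial markers, 3 had counts with TSA + phenamil and 5 with TSA, against 2 in each control library, and their part in the Id1 values was not tested. Of the 8 blood cell markers, 4 had counts with TSA + phenamil and 4 with TSA, against 1 (Cd14) in each control library. Cd14 had 83, 85, 64 and 57 counts with TSA + phenamil, TSA, senescent control and young control. With TSA + phenamil Cd68 had 9, Csf1r 2 and Ptprc 3, and with TSA Cd68 had 5, Csf1r 2 and Cd34 3. The part of these genes in the results was not tested either. The 10 endothelial markers summed to 20.1, 22.6, 18.5 and 28.9 CPM with TSA + phenamil, TSA, senescent control and young control, mostly from Egfl7, and the 8 blood cell markers to 9.24, 9.58, 5.81 and 5.14 CPM. The 5 adipocyte markers summed to 5.43, 4.03, 5.36 and 5.50 CPM in that order, and the 5 epithelial markers to 11.8, 20.1, 16.0 and 9.47 CPM, nearly all from Krt8. The epithelial sum was thus highest in the TSA library, as was Id1, and its part in the Id1 values was not tested. Mitochondrially encoded messenger RNAs took 6.85%, 6.02%, 5.66% and 5.47% of counts, and their part in the results was not tested either.

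Levels are given as CPM, the count of a gene per 1e6 counts of its library, with library sizes adjusted by TMM (the trimmed mean of M-values). The reads come from 3' transcript ends and were not divided by length, so levels are compared between libraries and not between genes. Ratios carry 95% exact counting intervals in parentheses, which cover counting error only. With 1 library per condition there is no replicate spread and no p-value, so each comparison describes 2 libraries and not the conditions. The size rule used throughout asks for a ratio beyond 1.3-fold in either direction and an interval that excludes 1. In bulk libraries fewer cells with a transcript and less transcript per cell cannot be told apart.

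Id1, a direct BMP target that restrains differentiation in many cell types, stood at 73.2 CPM with TSA + phenamil (769 counts), 124 CPM with TSA (1226), 88.0 CPM in the senescent control (969) and 71.9 CPM in the young control (797). The TSA library was the highest, and the TSA + phenamil and young control libraries did not differ beyond counting error, at a ratio of 1.02 (0.922 to 1.13). In the TSA + phenamil library Id1 was at 0.593 (0.541 to 0.649) times the TSA level. Against the senescent control its ratio was 0.832 (0.756 to 0.916), inside 1.3-fold. With TSA alone it was at 1.40 (1.29 to 1.53) times the senescent control and 1.72 (1.57 to 1.88) times the young control. The senescent control was at 1.22 (1.11 to 1.35) times the young control. Of the 8046 genes with at least 400 counts, 0.758% had a ratio as low or lower in TSA + phenamil against TSA, and 2.11% had one as high or higher in TSA against senescent control. Over the 4 libraries, 3.80% of these genes had a range as wide as the 1.72-fold range of Id1.

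Id3, the Id gene with the most reads, hardly varied. It had 193 CPM with TSA + phenamil, 221 CPM with TSA, 209 CPM in the senescent control and 195 CPM in the young control, from 2031, 2190, 2298 and 2162 counts. Its order of libraries was close to that of Id1, with TSA highest, but its range was 1.14-fold, and 80.6% of genes with at least 400 counts varied as much or more. The TSA + phenamil library was at 0.876 (0.824 to 0.931) times the TSA library, and TSA at 1.06 (0.998 to 1.12) times the senescent control.

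Id2, which also binds the retinoblastoma protein, had 32.9 CPM with TSA + phenamil, 43.9 CPM with TSA, 46.9 CPM in the senescent control and 40.9 CPM in the young control (345, 435, 517 and 454 counts). The TSA + phenamil library was the lowest, and the neighbouring levels of the other libraries did not differ beyond counting error. It stood at 0.749 (0.649 to 0.865) times TSA, 0.700 (0.609 to 0.804) times the senescent control and 0.803 (0.696 to 0.925) times the young control. Unlike Id1, Id2 was not past the rule in TSA against senescent control, at 0.934 (0.821 to 1.06).

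Id4, the member with the fewest reads, had 5.52 CPM with TSA + phenamil, 7.86 CPM with TSA, 7.26 CPM in the senescent control and 10.4 CPM in the young control. These levels rest on 58, 78, 80 and 115 counts, and no neighbours in their order differed beyond counting error. Between the ends of that order, TSA + phenamil was at 0.533 (0.382 to 0.737) times the young control. The senescent control was at 0.701 (0.520 to 0.940) times the young control. TSA + phenamil was at 0.702 (0.491 to 0.999) times TSA, which is past the rule by the narrowest margin, and with DESeq2 size factors or with TMM computed without mitochondrial and ribosomal protein genes the interval included 1.

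**Figure D1:**
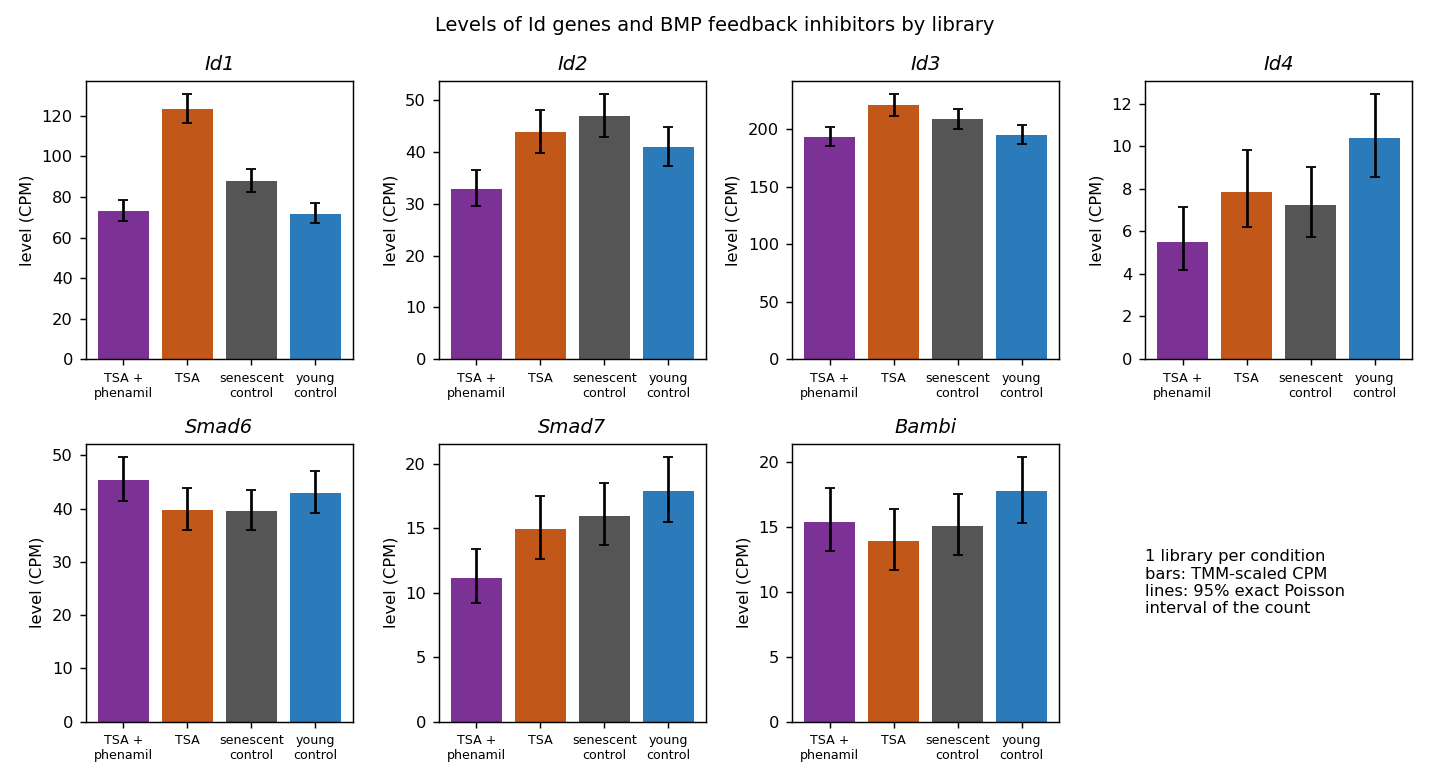
Level of each gene in CPM (vertical axis, from 0) in the 4 libraries, 1 per condition, with 95% exact Poisson intervals of the count as lines. Id1 is highest with TSA at 124 CPM, while Id2, Id4 and Smad7 are lowest with TSA + phenamil at 32.9, 5.52 and 11.1 CPM.

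Because the Id genes are read in the same library, their shares of all Id reads need no scaling between libraries. Id1 took 24.0% (22.5 to 25.5) of Id reads with TSA + phenamil, 31.2% (29.8 to 32.7) with TSA, 25.1% (23.7 to 26.5) in the senescent control and 22.6% (21.2 to 24.0) in the young control, with exact Clopper-Pearson 95% intervals. Id3 took 63.4%, 55.7%, 59.5% and 61.3% in the same order. These shares sum to the whole, so a larger Id1 share lowers that of Id3, whose own level was highest with TSA. Id2 took 10.8% with TSA + phenamil and 11.1% with TSA, against 13.4% in the senescent control and 12.9% in the young control. The Id1 ratio divided by the Id3 ratio was 0.676 (0.606 to 0.755) for TSA + phenamil against TSA and 1.33 (1.20 to 1.47) for TSA against senescent control. For Id1 divided by Id2 these were 0.791 (0.667 to 0.939) and 1.504 (1.29 to 1.76). The 2 comparisons share the TSA library, so its counting error enters both. All Id reads together came to 305 CPM with TSA + phenamil, 396 CPM with TSA, 351 CPM in the senescent control and 318 CPM in the young control.

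**Figure D2:**
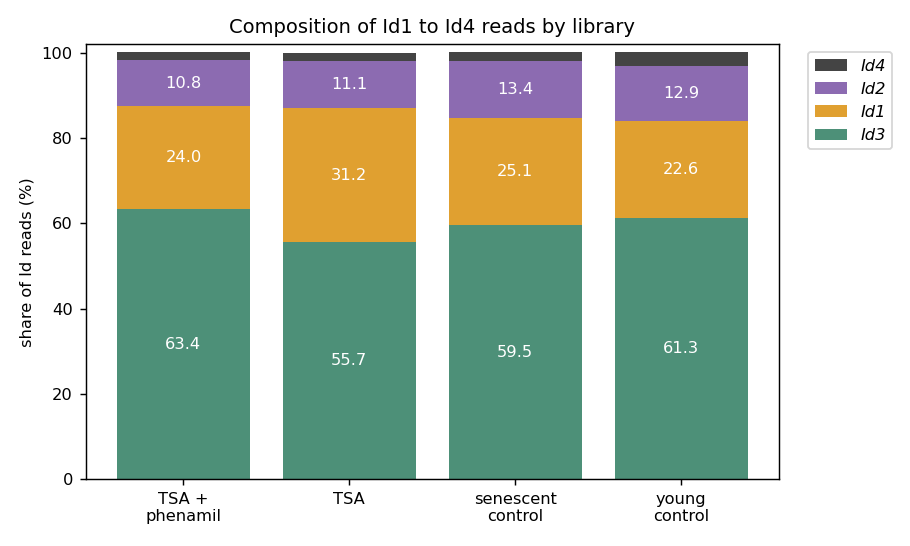
Share of each Id gene in all Id1 to Id4 reads of a library in percent (vertical axis), for 4 libraries with 1 per condition. The Id1 share is 31.2% with TSA and between 22.6% and 25.1% in the other libraries.

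The 3 Id genes with the most reads thus differed in how far they varied, and the promoter sequences of these genes are shown for comparison. Of the 7 genes, 6 had an entry in the RefSeq promoter table (rat build GRCr8), with Smad6 as the exception. The windows are the 250 bases before the annotated start, at chr3:161671314-161671563 on the plus strand for Id1, chr6:47470996-47471245 on the minus strand for Id2 and chr5:153656041-153656290 on the plus strand for Id3. Capitals mark the Smad element GTCT or its reverse complement AGAC, and the GC-rich Smad element GGCGCC.
Id1: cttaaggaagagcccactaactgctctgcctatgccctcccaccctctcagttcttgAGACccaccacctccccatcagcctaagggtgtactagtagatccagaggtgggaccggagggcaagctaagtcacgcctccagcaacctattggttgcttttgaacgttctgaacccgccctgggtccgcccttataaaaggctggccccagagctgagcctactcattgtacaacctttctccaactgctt
Id2: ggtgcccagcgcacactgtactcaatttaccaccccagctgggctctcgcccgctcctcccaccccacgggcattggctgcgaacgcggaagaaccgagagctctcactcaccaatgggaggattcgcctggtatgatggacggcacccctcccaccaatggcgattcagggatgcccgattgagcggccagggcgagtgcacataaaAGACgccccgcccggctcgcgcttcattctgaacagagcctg
Id3: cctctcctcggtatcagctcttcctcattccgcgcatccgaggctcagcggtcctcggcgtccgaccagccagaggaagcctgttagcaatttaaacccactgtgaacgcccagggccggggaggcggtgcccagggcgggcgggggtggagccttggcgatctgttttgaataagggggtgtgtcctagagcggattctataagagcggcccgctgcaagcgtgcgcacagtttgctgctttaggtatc
Both strands were searched for GTCT, for GGCGCC, for the Smad palindrome GTCTAGAC and for the E-box CANNTG, to which E proteins bind. The last 3 read the same on both strands, and GTCTAGAC contains GTCT. GTCT was found once each in the windows of Id1, Id2, Id4, Smad7 and Bambi and not in that of Id3. In Id1 it begins 193 bases and in Id2 42 bases before the start. It occurs in 84.1% of 33465 rat promoter windows of the same length. GGCGCC was found in 2 places in the Smad7 window and 1 in the Bambi window, against 8.70% of all windows with any match. This element holds only G and C, and these windows were 78% and 72.4% G or C, against 54.8% to 62.8% in the Id windows. The share over all windows does not allow for that. The E-box was found once each in Id1 and Id2, against 65.5% of all windows, and GTCTAGAC in none of the 6, against 0.173%. The known BMP-responsive element of mouse Id1 lies further upstream than such a window reaches. The first bases after the annotated Id4 start are ATG, so that window is not shown.

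Smad7, the inhibitory Smad that acts on both receptor branches, had 11.1 CPM with TSA + phenamil, 14.9 CPM with TSA, 16.0 CPM in the senescent control and 17.9 CPM in the young control (117, 148, 176 and 198 counts). The TSA + phenamil library was the lowest, and the other levels did not differ between neighbours beyond counting error. It was at 0.747 (0.581 to 0.958) times TSA, 0.697 (0.547 to 0.886) times the senescent control and 0.624 (0.492 to 0.788) times the young control.

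Smad6, the inhibitory Smad closer to the BMP branch, had 45.4 CPM with TSA + phenamil, 39.8 CPM with TSA, 39.6 CPM in the senescent control and 43.0 CPM in the young control. The counts were 477, 395, 436 and 477, and its range was 1.15-fold. It was not past the rule in any of the 6 comparisons, and 79.0% of genes with at least 400 counts varied as much or more. In TSA + phenamil against senescent control it was at 1.15 (1.01 to 1.31), while Smad7 was lower in that pair. The Smad6 ratio divided by the Smad7 ratio was 1.65 (1.25 to 2.17) there, 1.53 (1.15 to 2.04) in TSA + phenamil against TSA and 1.69 (1.29 to 2.22) in TSA + phenamil against young control. These comparisons share the TSA + phenamil library.

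Bambi had 15.4 CPM with TSA + phenamil, 13.9 CPM with TSA, 15.1 CPM in the senescent control and 17.8 CPM in the young control (162, 138, 166 and 197 counts). It was highest in the young control, and no neighbours in the order differed beyond counting error. It was not past the rule in any of the 6 comparisons, the farthest being TSA against young control at 0.783 (0.626 to 0.979). The Smad7 ratio divided by the Bambi ratio was 0.674 (0.476 to 0.952) in TSA + phenamil against TSA. Reads of the 3 inhibitors together came to 72.0 CPM with TSA + phenamil, 68.7 CPM with TSA, 70.6 CPM in the senescent control and 78.6 CPM in the young control.

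Counted by comparison, TSA + phenamil against TSA had the most members past the rule. This pair, which by the labels differs by phenamil, had 4 of 7 lower (Id1, Id2, Id4 and Smad7) and 0 higher, where 7.47% of 12228 genes were lower and 8.46% higher. The median log2 ratio of the 7 genes was -0.42, against 0.00 over all genes. Of the 4, Id1 was past 1.5-fold. If cultures are taken to vary with a coefficient of variation of 0.1, or with the whole interval beyond 1.3-fold, the count is 1 (Id1), and with DESeq2 size factors it is 3 (Id1, Id2 and Smad7).

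TSA + phenamil against senescent control had 2 of 7 lower (Id2 and Smad7) and 0 higher, with 6.72% of all genes lower and 7.23% higher. The median log2 ratio was -0.26 against 0.00 for all genes. TSA against senescent control had 1 of 7 higher, which was Id1, and 0 lower, with 6.88% of all genes higher and 6.84% lower. The median there was 0.01 against 0.00, and the 6 other members had log2 ratios from -0.12 to 0.11. With 7 genes, a single one past the rule is close to that background.

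Senescent control against young control had 1 of 7 lower, which was Id4, and 0 higher, with 8.14% of all genes lower and 7.92% higher. The median log2 ratio was -0.12 against 0.00. Id1, Id2 and Id3 had log2 ratios of 0.29, 0.20 and 0.10, while Id4, at -0.51, had the sign of Smad6, Smad7 and Bambi, at -0.12, -0.16 and -0.24. TSA against young control had 1 higher (Id1) and 0 lower, with 10.9% of all genes higher and 12.2% lower, and a median of -0.11 against 0.00. TSA + phenamil against young control had 2 lower (Id4 and Smad7) and 0 higher, with 7.07% of all genes lower and 7.08% higher, and a median of -0.20 against 0.00. In this last pair Id1 and Id3 were at 1.02 (0.922 to 1.13) and 0.992 (0.934 to 1.05) times the young level.

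**Figure D3:**
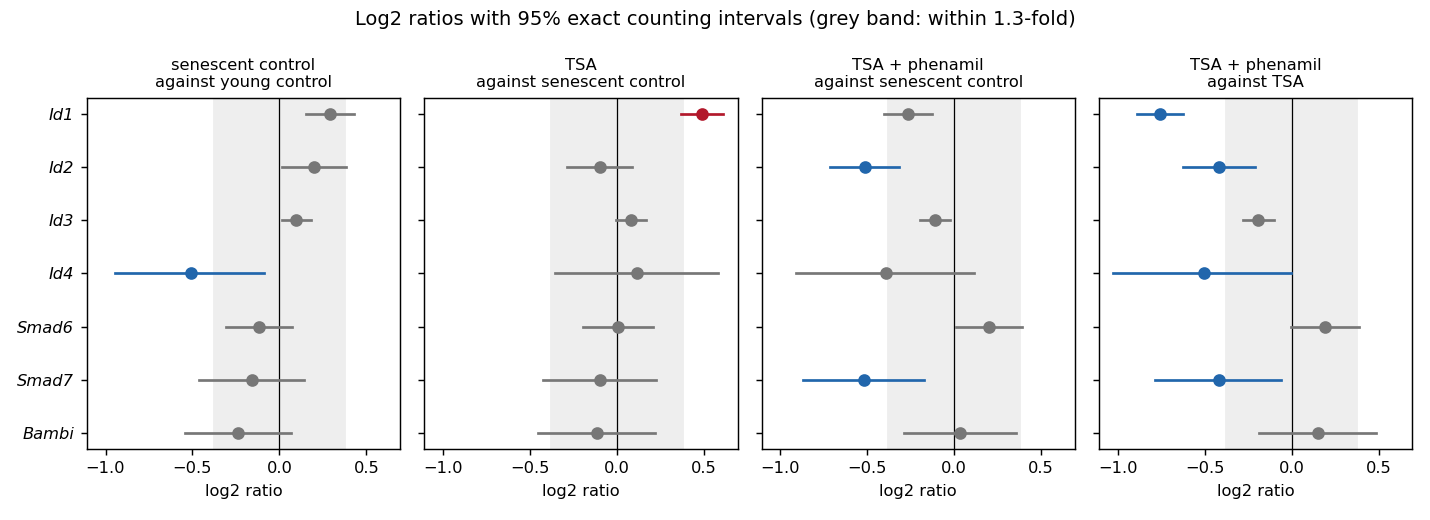
Log2 ratio of each gene (horizontal axis) in 4 comparisons, with 95% exact counting intervals and with the range within 1.3-fold in grey. Red and blue mark genes past the rule, higher and lower: 1 in TSA against senescent control is higher, and 4 in TSA + phenamil against TSA are lower, with the Id4 interval ending at 0.999 on the ratio scale.

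**Figure D4:**
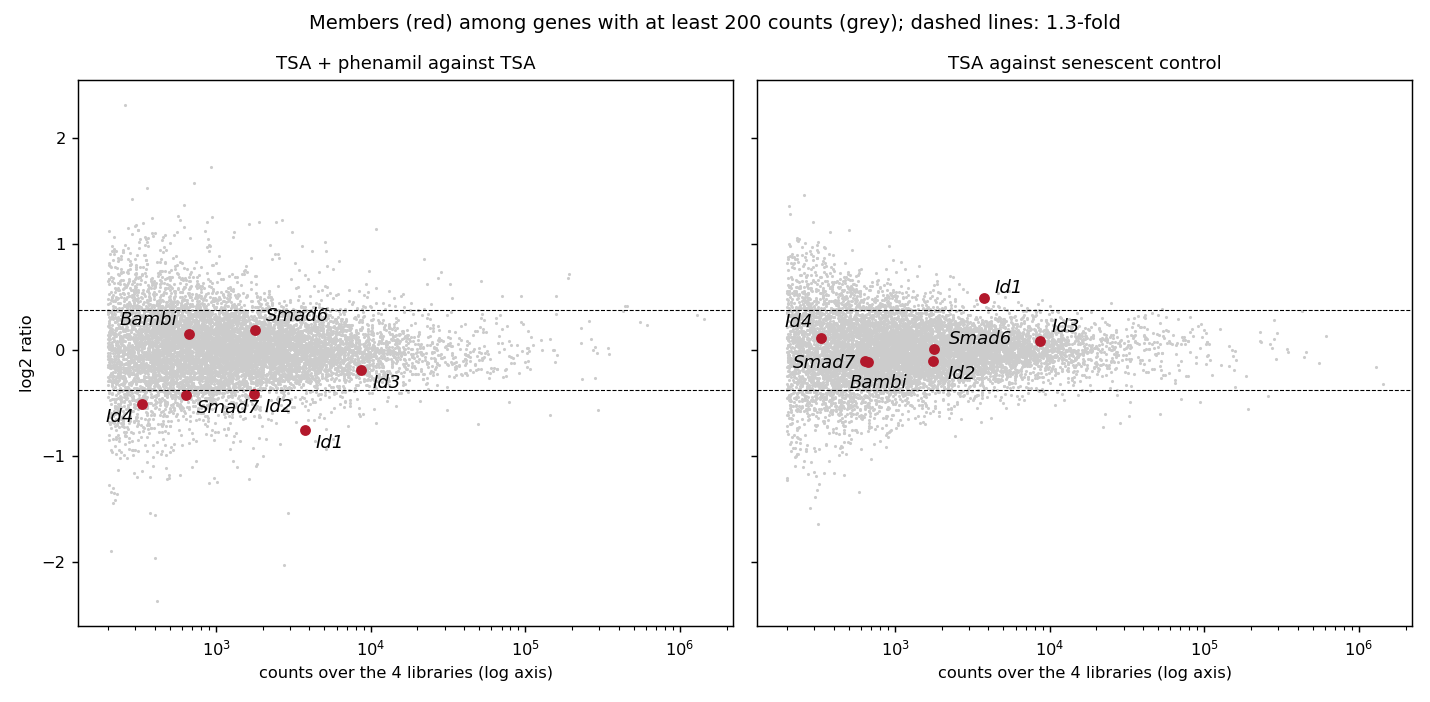
Log2 ratio (vertical axis) against counts over the 4 libraries (horizontal log axis) for genes with at least 200 counts in grey and the 7 members in red, in TSA + phenamil against TSA and TSA against senescent control. Id1 lies outside the 1.3-fold lines in both panels, below at -0.75 and above at 0.49, while Id3 lies between them.

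Genes of like pattern were sought for members with at least 400 counts and a log2 range of at least 0.3, by the root mean square difference of centred log2 CPM over the 4 libraries among 8046 genes. Likeness over 4 points can be high for many genes. Nearest to Id1 were Cystm1 at 0.024, Ptgs2 (the prostaglandin synthase COX-2) at 0.031 and Fam131a at 0.039. Ptgs2 had 26.1 CPM with TSA + phenamil, 45.0 CPM with TSA, 31.7 CPM in the senescent control and 24.7 CPM in the young control. Nearest to Id2 were Gde1, Ercc1 and Vwa1 at 0.006 to 0.025, nearest to Smad7 were Ttc23, Abcf3 and Cyp4f6 at 0.035 to 0.040, and nearest to Bambi were Kmt2d, Upf3a and Pphln1 at 0.007 each. None of the members searched (Id1, Id2, Smad7 and Bambi) had another member among its 3 nearest genes. With 3 places among 8046 genes this was likely in advance, so it does not show whether members varied together. Id3 ranked 1255 and Id2 1859 in likeness to Id1, and Id2 ranked 322 in likeness to Smad7. Id3, Id4 and Smad6 were not searched, and Id4, with 331 counts, could not be a neighbour.

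Of 12 Bmp and Gdf genes listed as ligands, 6 had enough counts, among them Bmp1, which encodes a procollagen protease and not a signalling ligand. For this and the following lists, the shares of all genes past the rule in each comparison are those given above for the members. In TSA + phenamil against TSA they were 8.46% higher and 7.47% lower, and in TSA against senescent control 6.88% and 6.84%. A single gene past the rule in such a list is close to that background. In TSA + phenamil against TSA 3 of the 5 others were higher (Bmp2, Bmp3 and Bmp6), as was Bmp1, and 0 were lower. Bmp2 had 37.1 CPM with TSA + phenamil, 23.0 CPM with TSA, 25.9 CPM in the senescent control and 37.5 CPM in the young control. Bmp4 had 352 CPM with TSA + phenamil, 306 CPM with TSA, 277 CPM in the senescent control and 207 CPM in the young control. It was therefore highest in the library in which Id2 and Smad7 were lowest. Id4 was also lowest and Smad6 highest there, neither apart from its neighbour in order beyond counting error. Id1 and Id3 did not differ beyond counting error between that library and the young control, where Bmp4 was lowest. Bmp1 was at 1.64 (1.40 to 1.93) times the TSA level with TSA + phenamil. In TSA against senescent control 0 of the 6 were higher and 3 lower (Bmp1, Bmp3 and Bmp6), and in senescent against young control 1 was higher (Bmp4) and 2 lower (Bmp2 and Bmp3).

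Of 15 receptors, co-receptors and Smads, 13 had enough counts, and in TSA against senescent control none of them was past the rule. TSA + phenamil against TSA had 1 higher (the activin receptor gene Acvr2a) and 1 lower (Smad9, on 11 against 25 counts). Against the senescent control TSA + phenamil had 2 higher, Acvrl1 (53 against 35 counts) and Acvr2b (30 against 14), and 1 lower (Rgma). Smad1, which carries the signal to the Id genes, had 21.9 CPM with TSA + phenamil, 16.9 CPM with TSA, 18.0 CPM in the senescent control and 23.9 CPM in the young control. The senescent control was at 0.752 (0.623 to 0.908) times the young control for Smad1. Smad5, which also carries this signal, had 43.9, 41.5, 43.0 and 41.0 CPM in the same order of libraries. Smad4 had 54.9, 48.9, 46.7 and 44.6 CPM. Neither Smad5 nor Smad4 was past the rule in any of the 6 comparisons. Acvr2a had 12.4 CPM with TSA + phenamil, 7.96 CPM with TSA, 9.71 CPM in the senescent control and 6.85 CPM in the young control. Rgma, which encodes a BMP co-receptor, had 5.24, 7.06, 7.54 and 4.60 CPM in these libraries, and TSA + phenamil was at 0.695 (0.485 to 0.989) times the senescent control.

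Among 8 of 14 secreted antagonists with enough counts, TSA + phenamil against TSA had 1 higher (Nog) and 1 lower (Fst). Nog, which encodes noggin, was at 1.54 (1.18 to 2.0006) times the TSA level with TSA + phenamil. Follistatin (Fst), which binds activins and some BMPs, had 105 CPM with TSA + phenamil, 176 CPM with TSA, 124 CPM in the senescent control and 80.7 CPM in the young control. Like Id1, Fst was highest with TSA. Fst was lowest in the young control, below TSA + phenamil beyond counting error. Id1, in contrast, did not differ beyond counting error between TSA + phenamil and the young control. TSA against senescent control also had 1 higher (Fst) and 1 lower (Chrd). Chrd, which encodes chordin, rests on 31 counts with TSA + phenamil, 36 with TSA, 63 in the senescent control and 39 in the young control, and was highest in the senescent control.

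All 14 genes of Smad turnover and repression were compared. TSA + phenamil against TSA had 2 higher, the ubiquitin ligase gene Smurf1 and the repressor gene Zeb2, and 1 lower, Tob1. Zeb2 had 126 CPM with TSA + phenamil, 88.1 CPM with TSA, 129 CPM in the senescent control and 145 CPM in the young control, and was at 1.43 (1.31 to 1.56) times TSA with TSA + phenamil. None of the 14 was past the rule in TSA + phenamil against either control library. Ski and Skil, which encode Smad repressors, were past the rule in TSA against young control, at 0.765 (0.727 to 0.805) and 0.740 (0.663 to 0.826).

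Of 18 other BMP targets listed, 12 had enough counts. In TSA + phenamil against TSA 4 were higher (Hey1, Hey2, Runx2 and Alpl) and 0 lower, where 8.46% of all genes were higher and 7.47% lower. Runx2, the osteoblast transcription factor, had 23.6 CPM with TSA + phenamil, 17.2 CPM with TSA, 19.6 CPM in the senescent control and 26.8 CPM in the young control. Hey2, a transcriptional repressor, had 14.1 CPM with TSA + phenamil, 10.6 CPM with TSA, 13.6 CPM in the senescent control and 20.8 CPM in the young control. Alpl, which encodes tissue-nonspecific alkaline phosphatase, was at 1.36 (1.10 to 1.67) times TSA with TSA + phenamil. In TSA against senescent control 1 was higher (Atoh8) and 2 lower (Hey1 and Gata3), and in TSA + phenamil against senescent control 0 were higher and 1 lower (Gata3).

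The 10 genes listed as TGF-beta targets bear on Smad7 as a target of that branch too. They include the signal carrier Smad3, and Skil, which is also among the turnover and repressor genes. They had 0 higher and 1 lower (Tgfbi, on 14 against 36 counts) in TSA + phenamil against TSA. None was past the rule in TSA against senescent control. Smad3, which carries TGF-beta signals, was at 0.691 (0.584 to 0.816) in senescent against young control and at 1.33 (1.12 to 1.59) in TSA + phenamil against senescent control. Tgfb1i1, which encodes the adhesion protein Hic-5, had 282 CPM with TSA + phenamil, 222 CPM with TSA, 277 CPM in the senescent control and 307 CPM in the young control.

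Among E proteins and basic helix-loop-helix genes, the partners and competitors of Id proteins, 9 of 13 had enough counts. Tcf3, an E protein, had 61.6 CPM with TSA + phenamil, 46.2 CPM with TSA, 61.1 CPM in the senescent control and 75.5 CPM in the young control. Its lowest level was in the TSA library, where Id1 was highest. Tcf4, the E protein with the most reads, was not past the rule in any of the 6 comparisons. It had 382 CPM with TSA + phenamil, 379 CPM with TSA, 391 CPM in the senescent control and 385 CPM in the young control. In TSA against senescent control 0 of the 9 were higher and 1 lower (Tcf3), with a median log2 ratio of 0.06. TSA + phenamil was at 1.33 (1.18 to 1.51) times TSA for Tcf3, and TSA at 0.756 (0.670 to 0.852) times the senescent control. Tcf12 had 111 CPM with TSA + phenamil, 101 CPM with TSA, 110 CPM in the senescent control and 131 CPM in the young control. Scx, a tendon transcription factor that pairs with E proteins, had 93.3 CPM with TSA + phenamil, 119 CPM with TSA, 109 CPM in the senescent control and 91.1 CPM in the young control. In TSA + phenamil against TSA 2 of the 9 were higher (Tcf3, and Msc on 29 against 13 counts) and 0 lower.

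In TSA + phenamil against TSA the median log2 ratio was 0.59 over the 6 genes of the ligand list, Bmp1 included, 0.12 over the receptors and Smads, 0.06 over the antagonists, -0.02 over the turnover and repressor genes, 0.02 over the other BMP targets and 0.05 over the TGF-beta targets, against 0.00 over all genes. Over the 4 Id genes it was -0.46 and over the 3 feedback inhibitors 0.15. In TSA against senescent control it was -0.28 over the same 6 genes, 0.10 over the Id genes and -0.10 over the feedback inhibitors. These comparisons share the TSA library.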

How the data were processed

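Per the labels' protocols, TRIzol RNA was made into QuantSeq 3' mRNA-Seq FWD libraries and read single-end at 100 bp on a NextSeq 500. The submitters' processing notes name STAR 2.7.10b, HTSeq 2.0.2 and mRatBN7.2, with no role or order. The sources used here name no annotation, strand setting or duplicate handling. In RefSeq's GRCr8 annotation 1 other gene overlapped Id1, with 0 counts here, and none overlapped the other members. The deposited counts are raw whole numbers per gene, per the file headers. The deposited log2 values are called normalized there, and they equalled log2 of scaled counts plus 1 within 0.000533.

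Counts were scaled by TMM (edgeR 4.0.16, R 4.3.3) over genes with at least 40 counts, and log2 ratios used a prior count of 0.5. No test was possible with 1 library per condition. Exact conditional binomial and Poisson intervals at 95% were computed in Python 3.11.15 (pandas 2.3.3, scipy 1.17.1, numpy 2.4.6), and figures were drawn with matplotlib 3.10.9. Ratios of 2 genes' ratios were conditional odds ratios with exact intervals. The interval code was tested on simulated data. No molecular identifiers are mentioned, and PCR copies are not independent, so intervals cover counting error only. Alternatives were other scalings (total counts, DESeq2 1.42.0 size factors, and TMM leaving out mitochondrial and ribosomal protein genes), count filters, size rules, a prior count of 2, an assumed coefficient of variation of 0.1 and the deposited log2 values.

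The members, lists and size rule were chosen with earlier results of these data known. Besides the members, named genes were the 3 nearest in pattern to each member and up to 3 per list, namely the most abundant ones past the rule in any comparison. Where the number of genes past the rule is given for a list, those genes are named too. Genes such as Smurf1 and Tob1 were thus named after their values were seen. So were Smad4, Smad5 and Tcf4, which were not past the rule in any comparison.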

Additional observations from a re-analysis of the deposited data

How the results depend on the processing

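With 1 library per condition no replicate could be left out, and culture-to-culture variation is unknown. No paired analysis was possible because each condition had 1 library. All 210 member log2 ratios recomputed under 3 other scalings, a prior count of 2 and the deposited log2 values stayed inside their counting intervals, with moves of up to 0.10 and 0 reversals among ratios past the rule. All 36 recomputed medians lay between the members' median lower and median upper interval bounds. Of 60 recomputed counts of members past the rule, 46 were within 1.5 times the reported count. The count filters removed no member and kept the scaling, so counts and medians under them could not change. The deposited log2 values rest on nearly the same scaling as TMM. Agreement under these settings therefore says nothing about robustness. At 1.5-fold the count was 0 in senescent against young control, in TSA against senescent control and in TSA + phenamil against senescent control, and 1 (Id1) in TSA + phenamil against TSA. With the whole interval beyond 1.3-fold it was 0 in the same first 3 comparisons, 1 (Id1) in TSA + phenamil against TSA and 1 (Id4) in TSA + phenamil against young control. With an assumed coefficient of variation of 0.1 it was 0 in senescent against young control, 1 (Id2) in TSA + phenamil against senescent control and 1 (Id1) in TSA + phenamil against TSA. The ratio alone and the deposited log2 values gave 2 (Id1 higher, Id4 lower) in TSA against young control. These settings widen or drop the interval or raise the fold. Id4, with 58 to 115 counts, and Smad7 and Bambi, with 117 to 198, were limited most by depth.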
